A study of Homo sapiens with 6 samples.

Results

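The kinesin motor family was followed in MDA-MB-231 cells that had become resistant to inhibitors of the mTOR kinase. MDA-MB-231 is an established line of human triple-negative breast cancer with mesenchymal features. RNA sequencing covered 3 groups with 2 libraries each. The ridaforolimus-resistant group is a derivative kept for months in 30 µM ridaforolimus, the everolimus-resistant group is a derivative kept for months in 20 µM everolimus, and the parental group is the line both came from. One label field gives the parental cells DMSO, whereas the treatment protocol gives them no drug. Each resistant group is a single derivative that was still in its drug, so resistance, exposure to the drug and drift of that derivative cannot be told apart. The labels do not say whether the 2 libraries of a group came from separate cultures, so p-values measure only the spread between these libraries, which may be technical. Kinesins whose symbols do not start with KIF, such as CENPE, were left out. Members were all protein-coding genes whose symbol is KIF with a number and any letter, plus KIFC1, KIFC2 and KIFC3. This gave 42 genes of the 69292 gene IDs in the table: 14 mitotic kinesins, 17 transport kinesins and 11 others. Of these, 33 passed the filter on low counts and were tested (12 mitotic, 15 transport and 6 others), and 9 did not.

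Kinesins are motor proteins that bind microtubules and use ATP to walk along them, to slide them against each other or to take apart their ends. Mitotic kinesins build the spindle, align and separate chromosomes and complete cytokinesis, and in most dividing cells their genes are switched on together late in the cell cycle. Transport kinesins carry vesicles, mitochondria, endosomes and cilium parts and are expressed through interphase. Ridaforolimus and everolimus are both analogs of rapamycin that bind FKBP12 and inhibit mTOR complex 1. They differ in the group carried at one hydroxyl of the cyclohexyl side group attached to the macrolide, which is a dimethylphosphinate in ridaforolimus and a hydroxyethyl ether in everolimus. The concentrations of the 2 drugs differed, so a difference between the resistant lines is a difference between lines at unequal doses.

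The promoters of the mitotic kinesins are shown first. The 12 tested mitotic kinesins moved together between libraries, and whether promoter motifs bear on this was not tested. RefSeq (GRCh38.p14) gave promoters for 34 of the 42 kinesins, and each covers 250 bases before and 50 bases after a transcript start. A pair of short motifs was searched on both strands. The CHR, the cell cycle genes homology region, was searched as TTTGAA or TTTAAA, and the second of these is its own reverse complement. It is known as the element that the MuvB complexes bind at late cell cycle genes. The CCAAT box, bound by NF-Y, was searched as CCAAT. Matches of one motif did not share letters with the other in the stretches below. Capitals mark the matches, so TTCAAA is the CHR and ATTGG the CCAAT box read on the other strand. Each stretch runs 5′ to 3′ on the gene's strand from 100 bases before the start through the first 20 transcribed bases.
KIF4A, chrX:70290004-70290123, + strand: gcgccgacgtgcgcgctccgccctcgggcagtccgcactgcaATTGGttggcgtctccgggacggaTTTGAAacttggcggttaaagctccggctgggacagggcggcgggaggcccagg
KIF20A, chr5:138179012-138179131, + strand: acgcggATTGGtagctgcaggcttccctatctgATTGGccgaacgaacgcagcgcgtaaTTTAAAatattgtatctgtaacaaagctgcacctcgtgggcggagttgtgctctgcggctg
KIF11, chr10:92593030-92593149, + strand: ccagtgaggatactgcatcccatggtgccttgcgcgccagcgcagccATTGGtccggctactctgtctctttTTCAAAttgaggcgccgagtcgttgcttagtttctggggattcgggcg
KIFC1, chr6:33391723-33391842, + strand: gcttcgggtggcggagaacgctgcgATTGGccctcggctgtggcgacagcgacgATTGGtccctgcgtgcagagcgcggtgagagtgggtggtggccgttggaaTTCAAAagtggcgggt
KIF18B, chr17:44947754-44947873, - strand: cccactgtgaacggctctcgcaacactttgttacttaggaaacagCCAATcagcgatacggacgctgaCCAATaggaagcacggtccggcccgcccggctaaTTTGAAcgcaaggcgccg
KIF2C, chr1:44739737-44739856, + strand: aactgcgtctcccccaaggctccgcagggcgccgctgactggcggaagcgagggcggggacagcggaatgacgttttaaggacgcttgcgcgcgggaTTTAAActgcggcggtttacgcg
KIF3C, chr2:25982478-25982597, - strand: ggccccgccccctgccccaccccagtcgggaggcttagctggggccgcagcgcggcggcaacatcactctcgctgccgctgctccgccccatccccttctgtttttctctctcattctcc

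The first 6 stretches belong to mitotic kinesins and each holds a CHR within 60 bases of the start. KIF3C, a transport kinesin, is shown beside them as an example chosen for having neither motif. Other transport kinesins had matches, such as KIF5B with a CCAAT box at position -59. Either CHR form was found in 12 of 15 promoters of mitotic kinesins (80.0%), in 2 of 17 promoters of transport kinesins (11.76%), in 0 of 11 promoters of the others, and in 8424 of all 35116 promoters (23.99%). The CCAAT box was found in 11 of 15 mitotic promoters (73.33%), in 5 of 17 transport promoters (29.41%), in 4 of 11 promoters of the others and in 12155 of all 35116 (34.61%). Of the 14 mitotic genes, 10 held both motifs. KIF22, which had a CCAAT box only, and KIF2B, which had neither, were the 2 without a CHR. The 12 mitotic genes with a CHR are not the 12 that were tested. KIF4B had a CHR and was not tested, while KIF22 was tested and moved with the others between libraries. In all 12 mitotic genes with a CHR, at least 1 match began between 60 bases before and 40 bases after the start, a range chosen after the positions were seen. The 2 transport kinesins with a CHR, KIF5B and KIF16B, had it at positions -140 and -241 from the start. A match is a run of letters and not a measured binding site.

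**Figure D1:**
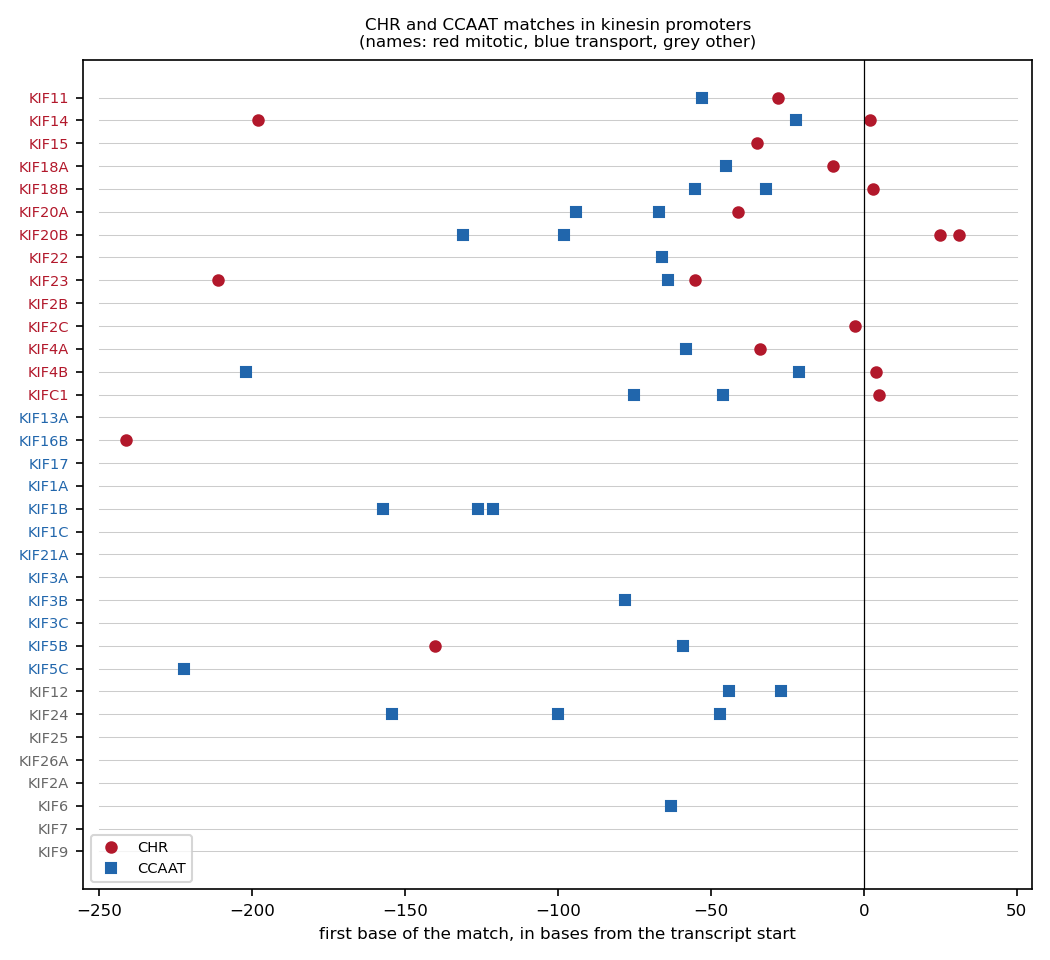
Positions of CHR matches (red circles) and CCAAT matches (blue squares) in the RefSeq promoters of 34 kinesins. The horizontal axis is the distance in bases from the transcript start (0), each row is 1 gene, and matches of a gene with more than 1 promoter share its row. CHR matches lie near the start in 12 mitotic kinesins and are absent from all but 2 of the other rows.

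Total counts were 13134567 to 15556246 per library. Markers of MDA-MB-231 such as VIM, AXL and CD44 stood between 133.6 and 1558 CPM (counts scaled to the TMM-adjusted library size), and of 5 genes listed as low in this line, CDH1, ESR1 and PGR stayed under 1 CPM in every library, while EPCAM ranged from 1.014 to 5.353 CPM and ERBB2 from 44.26 to 62.93 CPM. Of the immune markers, CD3E was 0 in every library, PTPRC reached at most 0.5114 CPM and CD14 ranged from 0.3305 to 2.139 CPM. The fibroblast markers DCN, PDGFRA and COL3A1 reached at most 0.2922 CPM. Of the endothelial markers, CDH5 reached at most 0.382 CPM, while PECAM1 ranged from 0.4573 to 11.54 CPM. Of the neuronal genes listed, SYP, SNAP25, ELAVL3 and TUBB3 reached at most 4.278 CPM, while MAP2 ranged from 7.734 to 34.79 CPM. Across all 21223 genes tested with edgeR's quasi-likelihood test, at an adjusted p under 0.05, 68 differed between ridaforolimus-resistant and parental cells, 1 between everolimus-resistant and parental cells and 158 between the resistant lines. Both resistant lines were set against the same 2 parental libraries. In bulk RNA, fewer cells in mitosis and less kinesin mRNA per mitotic cell cannot be told apart.

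Kinesin transcripts together took 3395 and 2369 CPM in ridaforolimus-resistant cells, 2467 and 3623 CPM in everolimus-resistant cells, and 2550 and 3123 CPM in parental cells. The 3 groups overlapped in this sum. Per kilobase of exon, which allows levels of different genes to be set side by side, KIF5B had the highest mean over the 6 libraries with 43.3 CPM per kilobase. KIF5B is the ubiquitous heavy chain of conventional kinesin. It was followed by KIF2C with 42.5, KIF18B with 38.1, KIFC3 with 32.5, KIFC1 with 30.7 and KIF11 with 30.3 CPM per kilobase. Of these, KIFC3 is another transport motor and the rest are mitotic. The neuronal transport motors KIF5A and KIF17 were far lower, at 0.196 and 0.396 CPM per kilobase, whereas KIFC2, also best known from neurons, had 5.81.

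A single kinesin, KIF21B, passed the test in any comparison. It was lower in ridaforolimus-resistant cells than in parental cells and than in everolimus-resistant cells. That is 1 of 33 tested kinesins in each of these comparisons, against 0.32% of all genes tested for ridaforolimus-resistant against parental cells (0.127% for lower genes) and 0.744% for ridaforolimus-resistant against everolimus-resistant cells (0.273% for lower genes). No kinesin passed in everolimus-resistant against parental cells with edgeR's quasi-likelihood test, where 0.00471% of all genes did. At an unadjusted p under 0.05 the counts of kinesins were 3 of 33 for ridaforolimus-resistant against parental cells (14.5% of all genes), 1 of 33 for everolimus-resistant against parental cells (8.79% of all genes) and 4 of 33 between the resistant lines (14.1% of all genes). DESeq2 and limma-voom called 0 kinesins in everolimus-resistant against parental cells as well. Of the 69 fold changes of single kinesins named in the 3 comparisons, 32 changed sign under at least 1 other setting, mostly when 1 library was left out, and none of these was called.

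**Figure D2:**
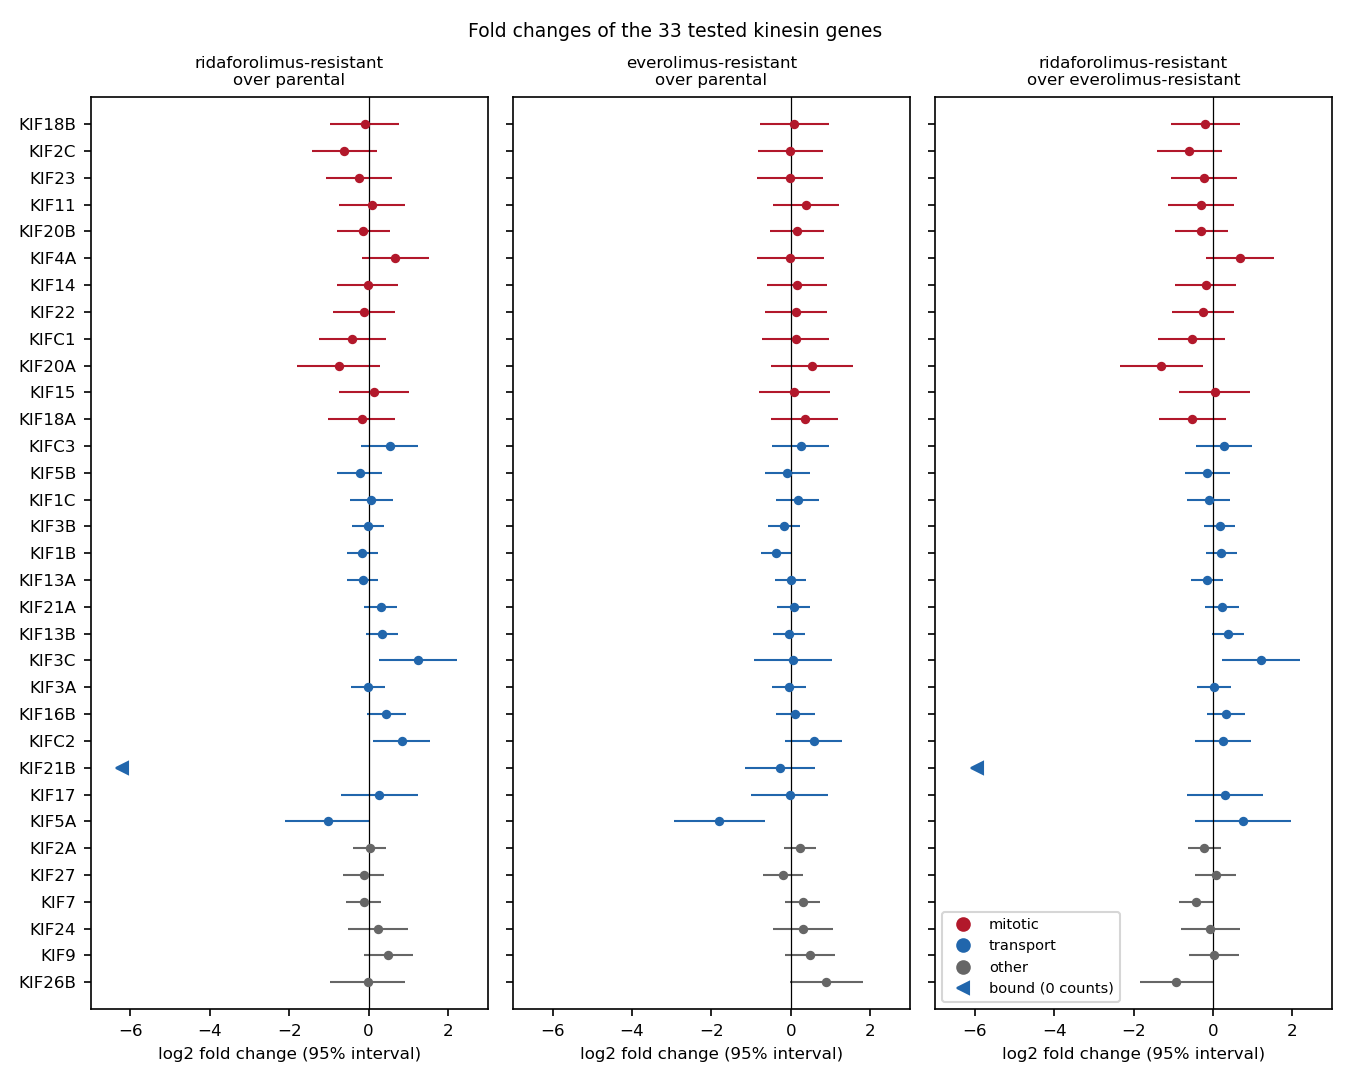
Log2 fold change of the 33 tested kinesins with 95% intervals from edgeR in ridaforolimus-resistant over parental cells (left), everolimus-resistant over parental cells (middle) and ridaforolimus-resistant over everolimus-resistant cells (right), coloured by role. Triangles mark the lower-bound change of KIF21B, which had 0 counts in both ridaforolimus-resistant libraries. Intervals of 30 of 32, 32 of 33 and 29 of 32 kinesins with an interval hold 0.

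KIF21B is a transport kinesin of the kinesin-4 family that walks towards microtubule plus ends and also limits microtubule growth. It lies on chromosome 1 (chr1:200969390-201023700, - strand, GENCODE 29 on GRCh38). It had 0 and 0 counts in the ridaforolimus-resistant libraries, 124 and 73 counts in the everolimus-resistant libraries, and 120 and 106 counts in the parental libraries. On the CPM scale this was 0 and 0 in ridaforolimus-resistant cells, 8.98 and 4.83 in everolimus-resistant cells, and 9.17 and 7.47 in parental cells. Both ridaforolimus-resistant libraries lay below all 4 others, and the everolimus-resistant and parental libraries overlapped. Taking 3 counts over the 2 ridaforolimus-resistant libraries as the floor that a count of 0 allows (0.112 CPM, counting error only), KIF21B was at least 74.3-fold lower than in parental cells and at least 61.7-fold lower than in everolimus-resistant cells. The adjusted p was 0.0113 against parental cells and 0.0116 against everolimus-resistant cells with edgeR's quasi-likelihood test. In everolimus-resistant over parental cells its log2 fold change was -0.27 ± 0.38 (SE), with an adjusted p of 0.882, and it was 0.11 without everolimus-resistant replicate 2.

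The call for KIF21B against parental cells was lost without ridaforolimus-resistant replicate 2 (adjusted p = 0.0506 with edgeR), without parental replicate 1 (0.0771) and without parental replicate 2 (0.0906). The call against everolimus-resistant cells was lost without ridaforolimus-resistant replicate 2 (adjusted p = 0.0549 with edgeR) and in a fit of those 2 groups alone (0.0646). DESeq2 gave adjusted p-values of 3.8e-07 and 8.3e-07 against parental and everolimus-resistant cells. Among the 11968 tested genes with at least 5 CPM on average in parental cells, 2 had 0 counts in both ridaforolimus-resistant libraries, KIF21B among them. Of 12193 genes with at least 5 CPM on average in ridaforolimus-resistant cells, 2 had 0 counts in both everolimus-resistant libraries.

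As a set, the genes around KIF21B did not share its change. Within 2 Mb on either side, 27 other genes were tested, of which 0 were called and 10 were above 0 in ridaforolimus-resistant over parental cells, with a median log2 fold change of -0.06. Over all 21223 genes tested, 0.32% were called and 10879 were above 0 in this comparison, with a median of 0.02. CAMSAP2, a microtubule minus-end binding protein encoded nearby, had 93.4 and 95.3 CPM in ridaforolimus-resistant cells, 99.4 and 98.2 CPM in everolimus-resistant cells, and 103 and 107 CPM in parental cells. The mitotic kinesin KIF14 lies in the same window and had a log2 fold change of -0.02 ± 0.33 (SE). INAVA, the closest tested gene, had 1.52 and 2.41 CPM in ridaforolimus-resistant cells, 9.63 and 5.49 CPM in everolimus-resistant cells, and 3.51 and 4.51 CPM in parental cells. Its adjusted p was 0.316 against parental and 0.0866 against everolimus-resistant cells with edgeR's quasi-likelihood test.

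**Figure D3:**
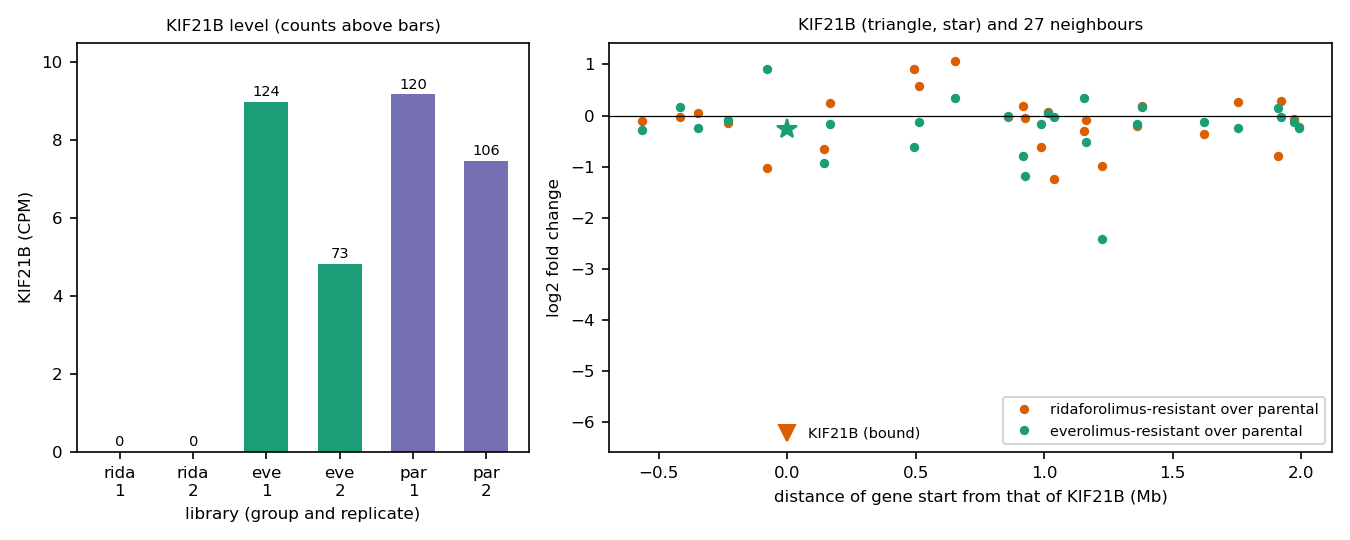
Left, KIF21B in CPM in each library, with raw counts above the bars: 0 and 0 in ridaforolimus-resistant (rida), 124 and 73 in everolimus-resistant (eve) and 120 and 106 in parental (par) libraries. Right, log2 fold changes against parental cells of KIF21B and its 27 tested neighbours by distance between gene starts in Mb. The bound for KIF21B in ridaforolimus-resistant cells lies below every neighbour.

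None of the 12 tested mitotic kinesins passed in any comparison, and their median fold changes were smaller than the SD of 0.50 (log2) between replicates of a group in their median level. In ridaforolimus-resistant over parental cells 9 of 12 were below 0, with a median log2 fold change of -0.13, beside 0.02 over all genes tested. In everolimus-resistant over parental cells 9 of 12 were above 0, with a median of 0.12, beside 0.02 over all genes. In ridaforolimus-resistant over everolimus-resistant cells 10 of 12 were below 0, with a median of -0.27, beside -0.02 over all genes. These medians changed sign with single libraries. Without ridaforolimus-resistant replicate 1 the first was -0.66, and without replicate 2 it was 0.26. Without parental replicate 2 it was 0.09. The median of everolimus-resistant over parental cells was -0.36 without everolimus-resistant replicate 2 and -0.08 without parental replicate 1. The median of ridaforolimus-resistant over everolimus-resistant cells was 0.09 without ridaforolimus-resistant replicate 2 and 0.14 without everolimus-resistant replicate 2.

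The median level of the mitotic kinesins differed more between the replicates of each group than between the groups. Replicate 1 minus replicate 2 had a median of 0.89 in ridaforolimus-resistant cells, -0.79 in everolimus-resistant cells and -0.44 in parental cells on the log2 scale. All 12 were higher in replicate 1 than in replicate 2 of the ridaforolimus-resistant cells, by 1.36-fold (KIF20A) to 2.20-fold (KIF18A) with a median of 1.86-fold. All 12 were higher in replicate 2 than in replicate 1 of the everolimus-resistant cells, by 1.42-fold (KIF18A) to 2.86-fold (KIF20A) with a median of 1.74-fold. All 12 were also higher in replicate 2 than in replicate 1 of the parental cells, by 1.23-fold (KIF2C) to 1.63-fold (KIF20A) with a median of 1.36-fold. Over all genes tested, the share with each of these orders was 49.3%, 47.5% and 49.1%. The 3 orders at once were met by 12 of 12 mitotic kinesins, 4 of 15 transport kinesins (KIFC3, KIF5B, KIF1C and KIF3B), 2 of 6 others (KIF7 and KIF24) and 19.4% of all genes tested. Replicate numbers have no order of their own, so this describes which libraries were high. It was seen first and then counted, and it has no test. The role lists were chosen with earlier results of these data known. KIF2A, a depolymerase also active at spindle poles, was placed among the others and did not meet all 3 orders.

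Genes of the cell cycle outside the member list stood high in the same libraries. All 20 of the G2/M genes listed (among them MKI67 and CCNB1) were higher in ridaforolimus-resistant replicate 1, in everolimus-resistant replicate 2 and in parental replicate 2 than in the other replicate of the same group. The same held for all 20 G1/S genes, and for 22, 21 and 21 of 22 spindle partners of the mitotic kinesins in the 3 groups. These partners include CENPE, itself a mitotic kinesin. MKI67, the Ki-67 proliferation marker, had 719.8 and 418.0 CPM in ridaforolimus-resistant cells, 727.9 and 1196 CPM in everolimus-resistant cells, and 845.4 and 953.8 CPM in parental cells. Whether the libraries differed in the share of cycling cells was not tested.

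**Figure D4:**
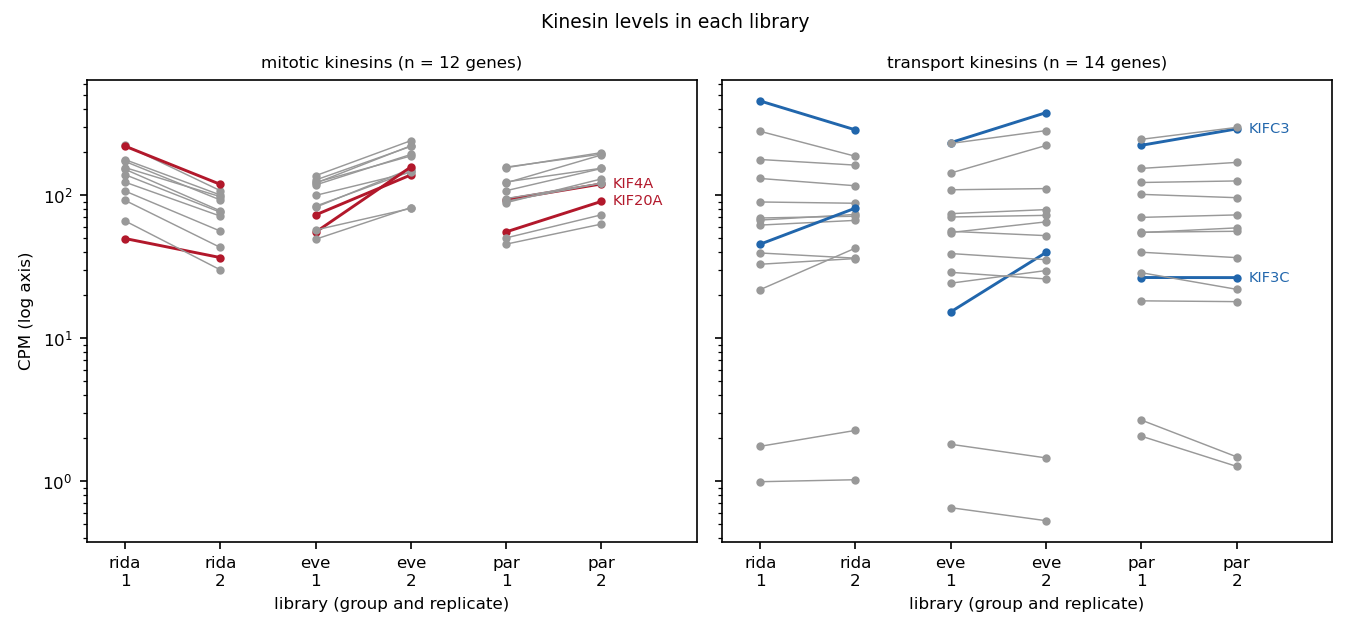
CPM (log axis) of the 12 tested mitotic kinesins (left) and of 14 tested transport kinesins other than KIF21B (right) in the ridaforolimus-resistant (rida), everolimus-resistant (eve) and parental (par) libraries. Lines join the 2 replicates of a group. All 12 mitotic lines slope down in ridaforolimus-resistant cells and up in everolimus-resistant and parental cells, while the transport kinesins slope both ways.

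Among motors that build the spindle, KIF11 slides antiparallel microtubules apart and is the target of several experimental anti-mitotic drugs. KIF11 had 177.8 and 100.5 CPM in ridaforolimus-resistant cells, 121.6 and 222.1 CPM in everolimus-resistant cells, and 107.7 and 154.0 CPM in parental cells. The groups overlapped, and the log2 fold change was 0.09 ± 0.36 in ridaforolimus-resistant over parental cells, 0.39 ± 0.36 in everolimus-resistant over parental cells and -0.31 ± 0.36 between the resistant lines (SE, adjusted p = 0.942, 0.801 and 0.762 with edgeR). Leaving out everolimus-resistant replicate 2 turned the second to -0.11 and the third to 0.20. KIFC1, a minus-end motor that focuses spindle poles and gathers extra centrosomes, had 107.1 and 56.2 CPM in ridaforolimus-resistant cells, 82.4 and 153.3 CPM in everolimus-resistant cells, and 94.9 and 121.4 CPM in parental cells. Its log2 fold change was -0.41 ± 0.37 (SE) in ridaforolimus-resistant over parental cells, and -0.96 and -0.0073 without ridaforolimus-resistant replicates 1 and 2.

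KIF2C takes apart microtubule ends at centromeres and so frees wrongly attached chromosomes. It had 152.1 and 77.8 CPM in ridaforolimus-resistant cells, 127.9 and 219.9 CPM in everolimus-resistant cells, and 157.5 and 194.2 CPM in parental cells. Both ridaforolimus-resistant libraries were below both parental libraries. The log2 fold change was -0.61 ± 0.36 (SE) with an interval of -1.44 to 0.21, so a fall of this size was not separable from the replicate spread (adjusted p = 0.472 with edgeR). It was -1.19 and -0.20 without ridaforolimus-resistant replicates 1 and 2. Non-overlapping groups were seen for 6 kinesins above and 6 below parental cells in ridaforolimus-resistant cells (25.1% and 24.3% of all genes, 49.4% in all). They were seen for 5 above and 3 below in everolimus-resistant against parental cells (20.6% and 20.5%, 41.1% in all), and for 7 above and 6 below between the resistant lines (20.9% and 20.4%, 41.2% in all). KIF18B, which shortens the microtubules that reach the cell cortex, had 224.3 and 107.8 CPM in ridaforolimus-resistant cells, 137.1 and 241.1 CPM in everolimus-resistant cells, and 156.0 and 198.9 CPM in parental cells.

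KIF20A brings the chromosomal passenger complex to the spindle midzone, where cytokinesis begins. It had 49.9 and 36.7 CPM in ridaforolimus-resistant cells, 55.2 and 157.8 CPM in everolimus-resistant cells, and 55.5 and 90.7 CPM in parental cells. The ridaforolimus-resistant libraries were below all 4 others. The log2 fold change was -0.76 ± 0.45 against parental cells and -1.30 ± 0.45 against everolimus-resistant cells (SE, interval of the second -2.34 to -0.26). Neither passed over all genes tested (adjusted p = 0.489 and 0.264 with edgeR's quasi-likelihood test). Without everolimus-resistant replicate 2 the difference from everolimus-resistant cells was -0.35, and without parental replicate 2 that from parental cells was -0.36. With no filter on low counts, the difference from everolimus-resistant cells was called (adjusted p = 2.1e-05 with edgeR), in a fit that called 3.34% of 40833 genes. KIF23, KIF14, KIF20B, KIF15, KIF18A and KIF22, the other tested mitotic kinesins, had log2 fold changes between -0.24 and 0.13 in ridaforolimus-resistant over parental cells and between -0.01 and 0.35 in everolimus-resistant over parental cells. An antisense gene, KIF23-AS1, overlaps the start of KIF23 and had 66 to 131 counts per library. The strand setting of the counting is not given in the sources used here, so reads of the pair may not be fully separated.

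KIF4A, a chromokinesin that carries PRC1 to the spindle midzone and helps shape mitotic chromosomes, departed from the other mitotic kinesins in ridaforolimus-resistant cells. It lies on chromosome X (chrX:70290090-70420832, + strand, GENCODE 29 on GRCh38). It had 220.8 and 119.3 CPM in ridaforolimus-resistant cells, 72.9 and 138.9 CPM in everolimus-resistant cells, and 93.3 and 120.1 CPM in parental cells. The groups overlapped on this scale. The log2 fold change was 0.67 ± 0.37 against parental cells (interval -0.17 to 1.52) and 0.68 ± 0.37 against everolimus-resistant cells (SE, adjusted p = 0.446 and 0.462 with edgeR's quasi-likelihood test). Without ridaforolimus-resistant replicate 1 these were 0.15 and 0.16, and without replicate 2 they were 1.06 and 1.07. Against everolimus-resistant cells the value was 0.28 and 1.22 without everolimus-resistant replicates 1 and 2. Set against the median log2 CPM of the other 11 mitotic kinesins in the same library, KIF4A stood at 0.66 and 0.65 in ridaforolimus-resistant libraries, at -0.45 and -0.18 in everolimus-resistant libraries and at -0.02 and -0.12 in parental libraries. On this relative scale the ridaforolimus-resistant libraries were above all 4 others, by a mean of 0.73 over parental and 0.97 over everolimus-resistant cells, while its replicates were at most 0.27 apart. KIF4A had the highest such difference from parental cells of the 12 mitotic kinesins, and KIF20A (-0.70) and KIF2C (-0.64) had the lowest.

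A fit with the mean level of the 20 listed G2/M genes as a covariate was added after the library differences had been seen. The covariate comes from the same libraries and left 2 residual degrees of freedom. In it, KIF4A was higher in ridaforolimus-resistant cells, with a log2 fold change of 1.02 ± 0.15 (SE, interval 0.68 to 1.36) over parental cells and of 1.10 ± 0.15 over everolimus-resistant cells (adjusted p = 0.0160 and 0.0117 with edgeR). KIFC3 was also called there, with 0.82 ± 0.15 over parental cells (SE, adjusted p = 0.0362 with edgeR) and 0.61 ± 0.15 over everolimus-resistant cells (adjusted p = 0.0891). That fit called 2.32% of all genes tested against parental cells and 2.48% between the resistant lines. In everolimus-resistant against parental cells it called 0 kinesins and 0.537% of all genes. The calls for KIF4A and KIFC3 rest on it, since neither passed under any other setting tried.

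Genes around KIF4A on the X chromosome were higher in ridaforolimus-resistant cells as well. Within 2 Mb on either side, 29 other genes were tested, and all 29 were above 0 in ridaforolimus-resistant over parental cells, with a median log2 fold change of 1.24 and 4 called. Against everolimus-resistant cells all 29 were above 0, with a median of 1.29 and 8 called. In everolimus-resistant over parental cells the median was -0.17, with 10 of 29 above 0 and 0 called. Over all 21223 genes tested, 10879, 10260 and 11110 were above 0 in these 3 comparisons, with medians of 0.02, -0.02 and 0.02. The shares of all genes called were 0.32%, 0.744% and 0.00471%. Of the 33 tested kinesins, KIF4A was the only one with every neighbour above 0 in ridaforolimus-resistant over parental cells. The next highest median, among 7 genes around KIF21A, was 0.66. DLG3, a scaffold protein gene beyond its end, had 95.5 and 103.8 CPM in ridaforolimus-resistant cells, 28.0 and 35.9 CPM in everolimus-resistant cells, and 36.1 and 39.6 CPM in parental cells, with adjusted p-values of 0.0356 and 0.0173 for ridaforolimus-resistant against parental and against everolimus-resistant cells with edgeR. PDZD11, which overlaps the first bases of KIF4A on the other strand, had a log2 fold change of 0.81 ± 0.22 (SE) in ridaforolimus-resistant over parental cells (adjusted p = 0.182 with edgeR). KIF4A was the only tested kinesin on the X chromosome, so the other kinesins do not show how far along it higher levels extended. The cell type markers MSN and SYP lie on the X chromosome outside this window. In ridaforolimus-resistant over parental cells they were at 1.06 ± 0.26 and -0.87 ± 0.51 (SE, adjusted p = 0.149 and 0.468 with edgeR), SYP at a mean of only 1.21 CPM. Whether the number of copies of the region around KIF4A differed was not tested. KIF4B, a near-identical copy of KIF4A on chromosome 5, had 0 to 3 counts per library, and the counting could have dropped reads that match both.

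**Figure D5:**
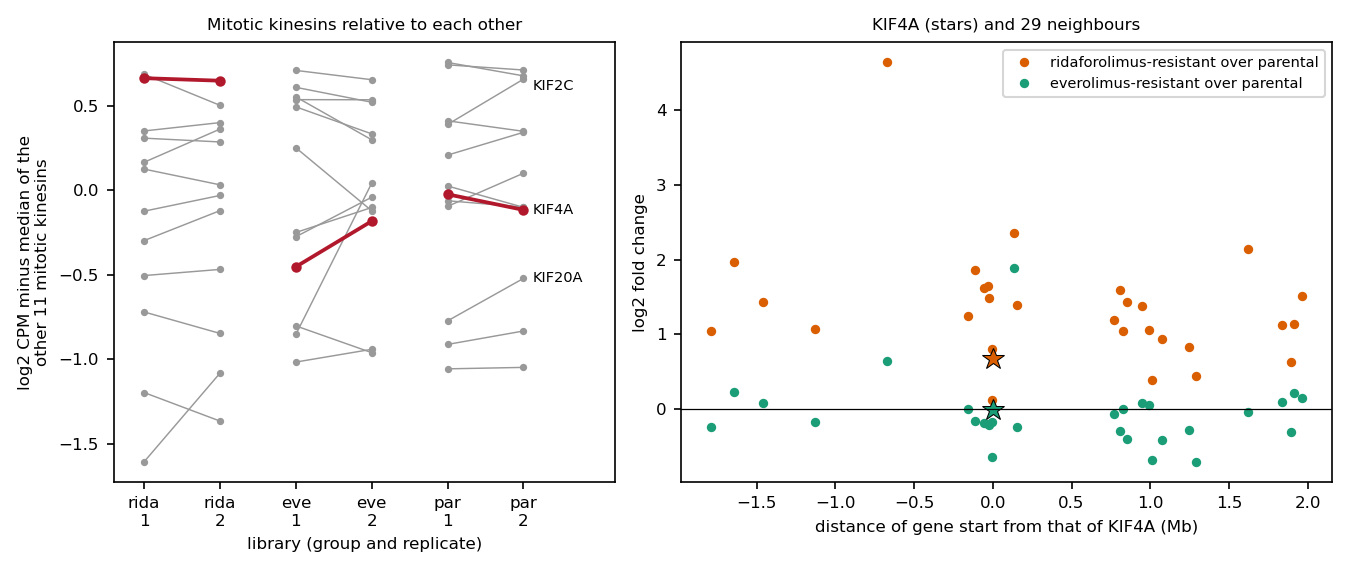
Left, log2 CPM of each of the 12 tested mitotic kinesins minus the median of the other 11 in the same ridaforolimus-resistant (rida), everolimus-resistant (eve) or parental (par) library, with KIF4A in red at 0.66 and 0.65, -0.45 and -0.18, and -0.02 and -0.12. Right, log2 fold changes against parental cells of KIF4A (stars) and its 29 tested neighbours by distance between gene starts in Mb. All 29 orange points, for ridaforolimus-resistant cells, lie above 0.

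None of the 14 tested transport kinesins other than KIF21B passed in any comparison. The SD between replicates of a group in the median level of transport kinesins was 0.09 (log2), against 0.50 for mitotic kinesins. Such an SD is also small where genes move in opposite ways. Per gene, the median SE in ridaforolimus-resistant over parental cells was 0.23 for transport and 0.37 for mitotic kinesins. The median log2 fold change of transport kinesins, with KIF21B included, was 0.07 in ridaforolimus-resistant over parental cells, -0.03 in everolimus-resistant over parental cells and 0.23 between the resistant lines. Over all genes tested these medians were 0.02, 0.02 and -0.02. Of the 15 transport kinesins, 8, 6 and 11 were above 0. The median between the resistant lines was larger than the SD of 0.09, and it was not tested. The kinesin-1 heavy chain KIF5B, which carries mitochondria and vesicles, had 280.3 and 187.4 CPM in ridaforolimus-resistant cells, 230.5 and 283.6 CPM in everolimus-resistant cells, and 246.4 and 298.6 CPM in parental cells. The groups overlapped, with log2 fold changes of -0.22 ± 0.25 and -0.08 ± 0.25 (SE) against parental cells. KIFC3, a minus-end motor linked to cell junctions, had 456.9 and 286.7 CPM in ridaforolimus-resistant cells, 233.6 and 378.8 CPM in everolimus-resistant cells, and 223.8 and 291.5 CPM in parental cells. KIF1C, which carries dense-core vesicles and integrins, had 178.0 and 162.6 CPM in ridaforolimus-resistant cells, 143.2 and 223.2 CPM in everolimus-resistant cells, and 154.2 and 169.9 CPM in parental cells.

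Kinesin-2 motors carry the trains of intraflagellar transport and other cargo. KIF3C had 45.5 and 81.4 CPM in ridaforolimus-resistant cells, 15.3 and 39.9 CPM in everolimus-resistant cells, and 26.6 and 26.6 CPM in parental cells. Both ridaforolimus-resistant libraries were above the other 4. The log2 fold change was 1.26 ± 0.43 over parental cells and 1.20 ± 0.43 over everolimus-resistant cells (SE, adjusted p = 0.262 and 0.273 with edgeR's quasi-likelihood test). With no filter on low counts both were called (adjusted p = 2.4e-04 and 4.6e-04 with edgeR), in fits that called 2.93% and 3.34% of 40833 genes. In everolimus-resistant against parental cells, 0 kinesins and 1.21% of all genes were called without the filter. Without ridaforolimus-resistant replicate 2, the log2 fold change was 0.78 over parental and 0.73 over everolimus-resistant cells, and it was 0.66 and 2.05 over everolimus-resistant cells without everolimus-resistant replicates 1 and 2. The subunit KIF3B, partner of KIF3A, had 131.1 and 116.6 CPM in ridaforolimus-resistant cells, 109.3 and 111.4 CPM in everolimus-resistant cells, and 122.9 and 126.0 CPM in parental cells. KIF3A had a log2 fold change of -0.01 ± 0.19 (SE) in ridaforolimus-resistant over parental cells, with an interval of -0.44 to 0.41.

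KIFC2, a minus-end motor best known from neurons, had 21.9 and 42.7 CPM in ridaforolimus-resistant cells, 24.3 and 29.8 CPM in everolimus-resistant cells, and 18.3 and 18.0 CPM in parental cells. Each resistant library was above both parental libraries. The log2 fold change was 0.83 ± 0.31 in ridaforolimus-resistant and 0.57 ± 0.31 in everolimus-resistant over parental cells (SE, adjusted p = 0.290 and 0.642 with edgeR). Without ridaforolimus-resistant replicate 2 the first was 0.28. KIF16B, which moves early endosomes, had 32.9 and 36.1 CPM in ridaforolimus-resistant cells, 28.9 and 26.0 CPM in everolimus-resistant cells, and 28.7 and 22.0 CPM in parental cells. KIF13B had 67.1 and 73.5 CPM in ridaforolimus-resistant cells, 55.9 and 52.2 CPM in everolimus-resistant cells, and 55.2 and 56.0 CPM in parental cells. Both KIF16B and KIF13B were above all 4 other libraries in ridaforolimus-resistant cells, by log2 fold changes over parental cells of 0.45 ± 0.21 and 0.34 ± 0.17 (SE, adjusted p = 0.382 and 0.414 with edgeR). Without parental replicate 2 the value of KIF16B was 0.26.

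KIF5A, the neuronal relative of KIF5B, had 0.991 and 1.02 CPM in ridaforolimus-resistant cells, 0.652 and 0.529 CPM in everolimus-resistant cells, and 2.67 and 1.48 CPM in parental cells. All 4 resistant libraries lay below both parental libraries. In everolimus-resistant over parental cells the log2 fold change was -1.80 ± 0.50 (SE, interval -2.94 to -0.65, adjusted p = 0.424 with edgeR), and in ridaforolimus-resistant over parental cells it was -1.03 ± 0.47 (adjusted p = 0.356), or -0.56 without parental replicate 1. KIF1B, which carries synaptic vesicle precursors and mitochondria, had 89.8 and 88.0 CPM in ridaforolimus-resistant cells, 74.4 and 79.4 CPM in everolimus-resistant cells, and 101.5 and 96.2 CPM in parental cells. Its log2 fold change was -0.36 ± 0.17 in everolimus-resistant over parental cells (SE, adjusted p = 0.597 with edgeR). KIF13A, KIF21A and KIF17, the remaining tested transport kinesins, had log2 fold changes between -0.15 and 0.30 in ridaforolimus-resistant and between -0.03 and 0.07 in everolimus-resistant over parental cells.

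The 6 other tested kinesins serve cilia, centrioles, Hedgehog signalling and microtubule turnover, and none passed. KIF2A, a depolymerase active at spindle poles and in interphase, had 93.7 and 82.4 CPM in ridaforolimus-resistant cells, 102.3 and 101.7 CPM in everolimus-resistant cells, and 83.4 and 89.6 CPM in parental cells. KIF7, the ciliary regulator of GLI factors, had 37.2 and 35.1 CPM in ridaforolimus-resistant cells, 44.3 and 52.6 CPM in everolimus-resistant cells, and 37.0 and 41.6 CPM in parental cells. Everolimus-resistant libraries were above all 4 others for both genes, with log2 fold changes over parental cells of 0.24 ± 0.18 and 0.30 ± 0.19 (SE, adjusted p = 0.744 and 0.698 with edgeR). Without everolimus-resistant replicate 2 the value of KIF7 was 0.17. KIF24, which restrains cilium growth at the mother centriole, had 44.1 and 25.5 CPM in ridaforolimus-resistant cells, 27.7 and 45.0 CPM in everolimus-resistant cells, and 26.0 and 32.7 CPM in parental cells. Its high and low libraries were those of the mitotic kinesins.

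KIF26B, a kinesin without ATPase activity that acts in Wnt5a signalling, had 2.59 and 1.61 CPM in ridaforolimus-resistant cells, 4.85 and 3.11 CPM in everolimus-resistant cells, and 2.14 and 2.11 CPM in parental cells. Both everolimus-resistant libraries were above the other 4. The log2 fold change was 0.90 ± 0.40 in everolimus-resistant over parental cells and -0.92 ± 0.40 in ridaforolimus-resistant over everolimus-resistant cells (SE, adjusted p = 0.568 and 0.352 with edgeR). Without everolimus-resistant replicate 1 these were 0.55 and -0.58, and without ridaforolimus-resistant replicate 2 the second was -0.59. KIF9, a motor of motile cilia, had 15.4 and 13.6 CPM in ridaforolimus-resistant cells, 16.9 and 11.6 CPM in everolimus-resistant cells, and 11.4 and 9.09 CPM in parental cells. Each resistant library was above both parental libraries. Its antisense partner KIF9-AS1 had 118 to 209 counts per library, about as many as KIF9, and their reads may not be fully separated. KIF27, a ciliary relative of KIF7, had 41.9 and 46.6 CPM in ridaforolimus-resistant cells, 49.9 and 34.5 CPM in everolimus-resistant cells, and 46.3 and 50.01 CPM in parental cells.

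The 9 kinesins that were not tested were at or near 0. KIF2B and KIF6 had 0 counts in all 6 libraries. KIF5C, the second neuronal kinesin-1 heavy chain, had 8 and 15 counts in ridaforolimus-resistant cells, 7 and 6 counts in everolimus-resistant cells, and 10 and 8 counts in parental cells. KIF25 had 0 to 9 counts per library. KIF1A, KIF4B, KIF12, KIF19 and KIF26A had 0 to 3 counts per library. Differences in these genes were not detectable at this depth.

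Genes that work with kinesins showed 0 called members in every list and comparison with edgeR's quasi-likelihood test. Among 20 tested cargo partners such as light chains and scaffolds, 2 had an unadjusted p under 0.05 in ridaforolimus-resistant against parental cells (14.5% of all genes), 2 in everolimus-resistant against parental cells (8.79%) and 1 between the resistant lines (14.1%). MAPK8IP1, a scaffold that links kinesin-1 to cargo, had 16.2 and 24.8 CPM in ridaforolimus-resistant cells, 15.6 and 12.4 CPM in everolimus-resistant cells, and 12.5 and 9.02 CPM in parental cells, and its log2 fold change over parental cells was 0.93 ± 0.30 in ridaforolimus-resistant cells (SE, adjusted p = 0.234 with edgeR). The light chain gene KLC3 was at -0.95 ± 0.37 in the same comparison (SE, adjusted p = 0.296). Between the resistant lines the vesicle GTPase gene RAB3A was at 0.66 ± 0.67 and the scaffold gene MAPK8IP2 at -0.55 ± 0.40 (SE, adjusted p = 0.716 and 0.593). Among 22 spindle partners 0 had an unadjusted p under 0.05 in any comparison, with medians of -0.34 in ridaforolimus-resistant over parental cells, 0.00 in everolimus-resistant over parental cells and -0.34 between the resistant lines. CDCA8, a subunit of the chromosomal passenger complex that KIF20A carries, had 125.7 and 50.6 CPM in ridaforolimus-resistant cells, 83.9 and 142.6 CPM in everolimus-resistant cells, and 154.6 and 167.0 CPM in parental cells, and its log2 fold change was -0.87 ± 0.41 in ridaforolimus-resistant over parental cells (SE, adjusted p = 0.375). The kinetochore gene NDC80 and CENPE, a kinetochore kinesin outside the naming rule, were at -0.69 ± 0.42 and -0.56 ± 0.36 in the same comparison (SE, adjusted p = 0.491 and 0.516 with edgeR). The spindle gene NUSAP1 was at 0.73 ± 0.51 in everolimus-resistant over parental cells (SE, adjusted p = 0.728 with edgeR).

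The 20 G2/M genes had 19 below 0 in ridaforolimus-resistant over parental cells (median -0.42), 8 below 0 in everolimus-resistant over parental cells (median 0.10) and 18 below 0 between the resistant lines (median -0.36). Over all 21223 genes tested, 10344, 10111 and 10963 were below 0 in these comparisons. The SD between replicates of a group in the median level was 0.56 (log2) for the G2/M genes, larger than any of these medians. These genes were high together in the same libraries, so their counts below 0 are not separate observations. CCNB1, the mitotic cyclin, was at -0.79 ± 0.38 in ridaforolimus-resistant over parental cells (SE, adjusted p = 0.382 with edgeR), and CDC20, which activates the anaphase-promoting complex, was at -1.10 ± 0.50 between the resistant lines (SE, adjusted p = 0.379). MKI67 was at -0.76 ± 0.32 between the resistant lines, and UBE2C, a ubiquitin-conjugating enzyme of the anaphase-promoting complex, was at -0.69 ± 0.37 in ridaforolimus-resistant over parental cells (SE, adjusted p = 0.347 and 0.435 with edgeR). The 20 G1/S genes had medians of -0.15, 0.32 and -0.48 in ridaforolimus-resistant over parental, everolimus-resistant over parental and ridaforolimus-resistant over everolimus-resistant cells, with the cyclin E genes CCNE2 at 1.15 ± 0.50 and CCNE1 at 0.88 ± 0.50 in the second (SE, adjusted p = 0.566 and 0.663). Between the resistant lines the replication genes FEN1 and MCM3 were at -1.10 ± 0.55 and -0.81 ± 0.46 (SE, adjusted p = 0.428 and 0.486 with edgeR). Among 21 members and regulators of the DREAM and MMB complexes, which are known to bind the CHR, 2 had an unadjusted p under 0.05 in ridaforolimus-resistant against parental cells (14.5% of all genes), 1 in everolimus-resistant against parental cells (8.79%) and 4 between the resistant lines (14.1%). Of the 21, 14, 9 and 16 were below 0 in these comparisons, with medians of -0.25, 0.07 and -0.27. CDKN1A, which encodes the cell cycle inhibitor p21, had 102.1 and 73.6 CPM in ridaforolimus-resistant cells, 54.1 and 51.3 CPM in everolimus-resistant cells, and 141.6 and 77.6 CPM in parental cells, with a log2 fold change of -1.06 ± 0.30 in everolimus-resistant over parental cells (SE, adjusted p = 0.439 with edgeR). The activator gene E2F2 was at -0.79 ± 0.50 between the resistant lines (SE, adjusted p = 0.535). E2F7, a repressor of cell cycle genes, had 174.8 and 122.1 CPM in ridaforolimus-resistant cells, 62.4 and 87.9 CPM in everolimus-resistant cells, and 73.8 and 84.6 CPM in parental cells. RBL2, the pocket protein p130 of DREAM, had 75.8 and 96.9 CPM in ridaforolimus-resistant cells, 56.4 and 44.3 CPM in everolimus-resistant cells, and 48.4 and 52.9 CPM in parental cells. Both were above all 4 other libraries in ridaforolimus-resistant cells, with log2 fold changes over parental cells of 0.91 ± 0.25 and 0.77 ± 0.21 (SE, adjusted p = 0.178 for both with edgeR).

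Of 21 tested dynein and dynactin genes, which encode the opposing minus-end motor, 1 had an unadjusted p under 0.05 in ridaforolimus-resistant against parental cells (14.5% of all genes), 1 in everolimus-resistant against parental cells (8.79%) and 0 between the resistant lines (14.1%). In ridaforolimus-resistant over parental cells the intermediate chain gene DYNC1I1 was at 1.06 ± 0.61, the light intermediate chain gene DYNC1LI1 at -0.55 ± 0.26 and the light chain gene DYNLL2 at -0.51 ± 0.19 (SE, adjusted p = 0.460, 0.379 and 0.289 with edgeR). The light chain gene DYNLT1 was at -0.53 ± 0.20 in everolimus-resistant over parental cells (SE, adjusted p = 0.531). Of 16 tubulin genes, which encode the track, 8 were above and 8 below 0 in ridaforolimus-resistant over parental cells. TUBB2A had 4.57 and 6.79 CPM in ridaforolimus-resistant cells, 7.75 and 17.0 CPM in everolimus-resistant cells, and 15.97 and 9.65 CPM in parental cells, with a log2 fold change of -1.17 ± 0.43 over parental cells (SE, adjusted p = 0.287). TUBB2B and TUBA8 were at 1.01 ± 0.40 and 0.99 ± 0.58 between the resistant lines, and TUBE1 at -0.85 ± 0.45 in everolimus-resistant over parental cells (SE, adjusted p = 0.321, 0.491 and 0.633 with edgeR). Tubulin genes are close copies of each other, so their counts may share reads.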

How the data were processed

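RNA of 6 libraries was sequenced after TruSeq Stranded mRNA preparation, per the labels' protocols. The authors deposited raw counts per Ensembl gene. Trim Galore 0.6.6, STAR 2.7.9a, HTSeq 0.13.5, DESeq2 and GRCh38 (hg38) are named, without roles, per the submitters' processing notes. Which annotation release and strand setting were used is not given in the sources used here. Symbols and positions came from a symbol table (62625 IDs matched) and GENCODE 29 (58279 IDs).

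Tests on the counts used R 4.3.3 with edgeR 4.0.16, by TMM normalisation, filterByExpr, glmQLFit and glmQLFTest on the 3 groups in all 6 libraries (3 residual degrees of freedom), two-sided, with Benjamini-Hochberg adjustment over 21223 genes and a threshold of 0.05. Standard errors and 95% intervals came from that fit, log2 CPM used a prior count of 2, and floors of 3 counts cover counting error only. DESeq2 1.42.0 and limma 3.58.1 (voom) were alternatives, beside RLE scaling, other filters, 2-group fits, a replicate block and leaving out each library. Total counts of 13134567 to 15556246 set the precision.

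Members were assigned roles by textbook function. Members and lists were chosen with earlier results of these data known. Kinesins given in full were those called, the 5 highest and 5 lowest fold changes per comparison with mean levels from 1 CPM up, the 4 highest per kilobase in each role, KIF4A, KIF4B and KIF11. Up to 4 genes of each other list were named by largest change.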

Additional observations from a re-analysis of the deposited data

Results flagged for a closer look

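KIF21B met the rule for an effect that differs between the 2 resistant lines. It had 0 and 0 counts in ridaforolimus-resistant libraries and 124 and 73 counts in everolimus-resistant libraries, against 120 and 106 counts in the parental libraries they share, and the difference between the lines had an adjusted p of 0.0116 with edgeR's quasi-likelihood test. The groups held 2 libraries each, so no group was searched for single libraries standing apart.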

How the results depend on the processing

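Counts of called genes moved with the setting, and the cause was not tested. In ridaforolimus-resistant against parental cells 68 genes were called, against 574 with DESeq2, 1195 with no filter, 127 with those 2 groups alone and 493 with the G2/M covariate, and 1 to 276 when 1 library was left out (2 without ridaforolimus-resistant replicate 2, 1 without either parental replicate, 276 and 236 without everolimus-resistant replicates 1 and 2). In everolimus-resistant against parental cells 1 gene was called, against 150 with DESeq2, 493 with no filter, 0 with a 5 CPM filter or 2 groups alone and 114 with the covariate, and 0 to 3 with 1 library left out. Between the resistant lines 158 were called, against 657 with DESeq2, 1362 with no filter, 81 with a 5 CPM filter, 0 with 2 groups alone and 526 with the covariate, and 19 to 123 with 1 library left out (84 and 19 without ridaforolimus-resistant replicates 1 and 2, 95 without everolimus-resistant replicate 2, 48 and 46 without parental replicates 1 and 2). Kinesins called against parental cells in ridaforolimus-resistant cells were 1, against 2 with no filter, 3 with the covariate and 0 to 1 with 1 library left out. Between the resistant lines 1 was called, against 3 with no filter, 0 with 2 groups alone, 2 with the covariate and 0 to 1 with 1 library left out.

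With 1 library left out, the median of the mitotic kinesins ranged from -0.66 to 0.26 in ridaforolimus-resistant over parental cells. That of the transport kinesins ranged from 0.068 to 0.17 there and was 0.27 with no filter, and it ranged from 0.13 to 0.26 between the resistant lines. Of 960 values of single kinesins under the other settings, 887 kept direction and side of the threshold, 5 lost the call (all for KIF21B), 6 gained it and 62 changed sign. The 62 belonged to 32 of 69 fold changes, none of which was called, and 48 came from leaving out 1 library. With 1 library left out, values in ridaforolimus-resistant over parental cells ranged from -0.39 to 0.45 for KIF11, -0.73 to 0.34 for KIF18B, -0.0057 to 0.14 for KIF1C, -0.21 to 0.59 for KIF24, -0.41 to 0.29 for KIF26B, -0.081 to 0.12 for KIF2A, -0.10 to 0.083 for KIF3B and -0.55 to 0.048 for KIF5B. With 1 library left out, values in everolimus-resistant over parental cells ranged from -0.11 to 0.77 for KIF11, -0.085 to 0.0022 for KIF13B, -0.066 to 0.32 for KIF16B, -0.38 to 0.45 for KIF18B, -0.18 to 0.47 for KIF1C, -0.41 to 1.11 for KIF20A, -0.78 to 0.11 for KIF21B, -0.091 to 0.62 for KIF24, -0.48 to 0.045 for KIF27, -0.47 to 0.33 for KIF2C, -0.80 to 0.59 for KIF3C, -0.56 to 0.39 for KIF4A, -0.25 to 0.063 for KIF5B, -0.40 to 0.51 for KIFC1 and -0.15 to 0.56 for KIFC3. With 1 library left out, values between the resistant lines ranged from -0.78 to 0.20 for KIF11, -0.82 to 0.28 for KIF18B, -0.40 to 0.25 for KIF1C, -0.52 to 0.33 for KIF24, -0.17 to 0.35 for KIF27, -0.46 to 0.14 for KIF5B, -0.22 to 0.31 for KIF9, -0.29 to 0.66 for KIFC2 and -0.10 to 0.67 for KIFC3. With the G2/M covariate, 9 of the 69 named fold changes changed sign. In ridaforolimus-resistant over parental cells these were KIF3B to 0.036 and KIF18B to 0.24. Between the resistant lines they were KIF9 to -0.053, KIF27 to -0.041, KIF11 to 0.11, KIF18B to 0.20, KIF5B to 0.057, KIF1C to 0.094 and KIF24 to 0.27. Outside these 69, KIF23 turned to 0.12, KIF20B and KIF18A to 0.13, KIF14 to 0.28 and KIF22 to 0.21 in ridaforolimus-resistant over parental cells. Between the resistant lines KIF23 turned to 0.15, KIF20B to 0.0027, KIF14 to 0.13 and KIF22 to 0.14. The median of the mitotic kinesins also turned, to 0.17 in ridaforolimus-resistant over parental cells and to 0.12 between the resistant lines. With the 5 CPM filter, KIF3B was at 0.035 in ridaforolimus-resistant over parental cells, and KIF2C was at 0.0016 and KIF4A at 0.0059 in everolimus-resistant over parental cells. In that comparison KIF3C was at -0.094 with limma-voom.

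Deviations of same-numbered libraries correlated at -0.17 in ridaforolimus-resistant against parental and 0.33 in everolimus-resistant against parental cells. The value was -0.19 between the resistant lines. With 2 libraries per group these values cannot decide whether libraries of the same number were paired. With a replicate block 28, 0 and 49 genes were called in ridaforolimus-resistant against parental, everolimus-resistant against parental and ridaforolimus-resistant against everolimus-resistant cells, and KIF21B kept adjusted p-values of 0.0418 and 0.0330 with edgeR. The block turned KIF3C to -0.11 in everolimus-resistant over parental cells. With 2 libraries per group and 3 residual degrees of freedom, standard errors of kinesin fold changes were 0.17 to 0.47 in ridaforolimus-resistant over parental cells, which limits what differences could be called.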
